A study of Mus musculus with 15 samples.

Results

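The crosslink sites of tristetraprolin (TTP, gene Zfp36) in the 3′ untranslated regions (3′UTRs) of macrophage mRNAs were compared with those of TTP-AA, a mutant form that carries alanine at the serines normally targeted by the kinase MK2. All libraries came from cells stimulated for 1 h with lipopolysaccharide (LPS). Both proteins carried a green fluorescent protein (GFP) tag and were made from a doxycycline-inducible transgene in immortalised bone marrow-derived macrophages of TTP-deficient C57BL/6 mice. Every group had received doxycycline for 6 h, so the levels of both proteins were set by the transgene and no endogenous TTP was present. The comparison used 7 of the 15 samples of the series, 4 libraries of GFP-TTP and 3 of GFP-TTP-AA. The authors had pooled the libraries of each group into 1 list of crosslink sites before deposit. The tests below therefore compare 2 lists, the spread between libraries is unknown, and all intervals cover counting error alone.

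TTP is a zinc finger protein that binds AU-rich elements, stretches of 3′UTR built around the pentamer AUUUA, and brings deadenylases to the mRNA, which is then degraded. In macrophages it limits the production of TNF and of many other inflammatory mediators. LPS activates p38 MAP kinase and its substrate MK2, which phosphorylates TTP. The phosphorylated protein is bound by 14-3-3 proteins and is less active in mRNA decay, whereas TTP-AA cannot be phosphorylated by MK2 at these serines. In iCLIP, which maps UV-crosslinked RNA-protein contacts to the single nucleotide, each cDNA that ends at the crosslinked base counts 1 binding event, and the base before its start is the site.

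Of 21028 protein-coding genes with an annotated 3′UTR, 4647 held a site there in either list. TTP had a 3′UTR site in 1295 genes and TTP-AA in 4469, and 1117 genes were shared. The TTP list held 9558 3′UTR cDNAs at 6775 sites and the TTP-AA list 93510 cDNAs at 61183 sites. These were 9.63% (95% Wilson interval 9.45 to 9.81) of all listed TTP cDNAs and 53.6% (53.4 to 53.9) of all listed TTP-AA cDNAs. The summed ratio of TTP-AA to TTP cDNAs in 3′UTRs was 9.78 (9.58 to 9.99), and every gene or group below is read against it. Most sites were thin in both lists, since a lone cDNA made up 82.0% of sites for TTP and 77.3% for TTP-AA. The lists hold sites that passed the authors' false discovery filter alone, so a gene listed at 0 may have had cDNAs below that filter. The files hold no measure of RNA abundance, and a larger amount of an mRNA and a larger bound share of it cannot be told apart.

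The transgene and the cell type were checked first. The Zfp36 3′UTR (gene at chr7:28376784-28380253, GRCm38) held 21 cDNAs for TTP and 131 for TTP-AA, and its coding sequence held 7 and 31. Per the study's methods the transgene carried the coding sequence of TTP without its 3′UTR, so the 3′UTR cDNAs cannot come from it. The coding sequence cDNAs do not tell the transgene from a disrupted endogenous gene. Of 10 macrophage markers, 8 had 3′UTR sites in the TTP-AA list (351 cDNAs) and 3 in the TTP list (74 cDNAs, of which Lyz2, lysozyme, gave 68). None of the 4 T cell, 4 B cell, 5 neutrophil, 5 fibroblast or 4 epithelial markers was listed in either. This absence cannot exclude other cell types, since an expressed mRNA without a listed site would be absent too.

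The leading sites of the genes on which the comparison turned are shown as 29 nt of mRNA, the crosslinked base with 14 nt on each side, read from transcripts of GENCODE mouse release M21 on GRCm38. AUUUA is in capitals. The first set holds genes in which the leading site of both proteins fell in or next to the same element. Tnf encodes the cytokine TNF, Ccl3 a chemokine, Dusp1 the phosphatase that switches off p38, and Ier3 an immediate early survival factor.
Tnf, TTP-AA, chr17:35199649-35199677, minus strand, nt 482 of the 3′UTR: uugcuuaugaauguAUUUAuuuggaaggc
Tnf, TTP, chr17:35199646-35199674, minus strand, nt 485: cuuaugaauguAUUUAuuuggaaggccgg
Ccl3, both, chr11:83648016-83648044, minus strand, nt 223: uauugucauacuuguauuugugacuauuu
Dusp1, both, chr17:26505868-26505896, minus strand, nt 398: uuuuaccuuuAUUUAuuuuuguguagguc
Ier3, both, chr17:35822538-35822566, plus strand, nt 242: guaauAUUUAuucuaacuuaugcaggggu
At these sites Tnf had 52 TTP and 47 TTP-AA cDNAs, Ccl3 26 and 39, Dusp1 10 and 12, and Ier3 9 and 13. All 4 genes carried a larger share of the TTP than of the TTP-AA 3′UTR cDNAs. The Ccl3 window lacks the pentamer.

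The second set shows genes in which the leading sites of the 2 proteins lay apart. Mdm2 encodes the ubiquitin ligase of p53, Cxcl2 a neutrophil chemokine, and Actr2 and Actb are actin cytoskeleton genes.
Mdm2, TTP-AA, chr10:117689809-117689837, minus strand, nt 387: uaauaagaacAUUUAAUUUAUUUAguguc
Mdm2, TTP, chr10:117689779-117689807, minus strand, nt 417: uucauguaaagaguuaaagacuaugugaa
Cxcl2, TTP-AA, chr5:90905878-90905906, plus strand, nt 1448: aaguggacacAUUUAUUUAuucauguauu
Cxcl2, TTP, chr5:90905845-90905873, plus strand, nt 1415: agcaauuguuuugucaugccuuuucgugu
Actr2, TTP-AA, chr11:20062701-20062729, minus strand, nt 1974: uuuauauauguaauaAUUUAgaaauucca
Actr2, TTP, chr11:20063267-20063295, minus strand, nt 1408: uuuuucuuuuuuuuuucuuuuuuuuuuuu
Actb, TTP-AA, chr5:142903263-142903291, minus strand, nt 521: uuuuguuuuuaauuucugaauggcccagg
Actb, TTP, chr5:142903645-142903673, minus strand, nt 139: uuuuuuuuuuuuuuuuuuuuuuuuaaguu
The leading TTP-AA sites of Mdm2 and Cxcl2 rested on 46 and 41 cDNAs and held overlapping pentamers. The leading TTP sites of the same genes rested on 5 of 149 and 9 of 258 cDNAs and held none. Over all placed cDNAs, TTP lay within 20 nt of AUUUA more often than TTP-AA in both genes. The shares were 77.85% against 59.98% in Mdm2 and 70.93% against 67.86% in Cxcl2. Actb went the same way (9.97% against 4.93%) and Actr2 the other way (25.64% against 33.84%). In Actr2 and Actb the leading TTP sites, with 3 and 7 cDNAs, lay in runs of U, and the leading TTP-AA sites had 8 and 29 cDNAs.

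The third set shows sites near the end of a 3′UTR and a site outside AU-rich sequence. Cxcl10 encodes an interferon-induced chemokine and Nfkbia the NF-κB inhibitor IκBα, and Lars2 encodes the mitochondrial leucyl-tRNA synthetase.
Cxcl10, TTP-AA, chr5:92346849-92346877, minus strand, nt 938 of 996: uauguguaaauacuAUUUAaugaacgacu
Nfkbia, TTP-AA, chr12:55489444-55489472, minus strand, nt 464 of 512: uuuuguugguaauuauuuugguacuucua
Lars2, both, chr9:123461784-123461812, plus strand, nt 120: aggagucagcaggaggccuaaggcgagcu
The Cxcl10 and Nfkbia sites had 43 and 31 TTP-AA cDNAs and lay near the end of the 3′UTR. The Lars2 site had 77 TTP and 96 TTP-AA cDNAs in a window without AU-rich sequence.

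The first question was which genes carried a larger share of the 3′UTR cDNAs of one protein than of the other. Of 2065 genes with at least 10 cDNAs over both lists, 132 (6.39%) differed in share by Fisher's exact test with Benjamini-Hochberg adjustment. A larger TTP-AA share was called in 41 genes (1.99%) and a larger TTP share in 91 (4.41%). These 2 counts do not compare the directions on equal terms, because a TTP-AA call needed many cDNAs. Among genes listed at 0 for TTP, Ccnl1 with 55 TTP-AA cDNAs was not called and Cdk1 with 66 was. Of the 961 genes with 10 to 20 TTP-AA cDNAs, 0 were called towards TTP-AA and 16 towards TTP. Of the 540 genes above 20 and up to 40, these were 0 and 22. At an unadjusted p under 0.05, 374 genes were counted. The median log2 ratio over all tested genes, scaled to the summed 3′UTR cDNAs with a pseudocount of 0.5, was 1.23. This median rested on the 1140 tested genes that the TTP list held at 0, since over the 925 genes in both lists it was -0.66. Of the 41 genes called higher in TTP-AA, 32 were listed at 0 for TTP, and the calls of these genes depend on the authors' filter. In 13 of the 91 genes called higher in TTP, TTP had more cDNAs than TTP-AA.

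These calls concern shares within 3′UTRs. With all other cDNAs of the list in any region as the denominator, 1763 genes were called, 1754 towards TTP-AA and 9 towards TTP, and 26 calls turned direction. With each site counted once whatever its cDNAs, 106 genes were called, 17 higher in TTP-AA and 89 in TTP. Counting sites lowers the ratio by construction where TTP-AA has more cDNAs per site than TTP. Cxcl10, for example, had 13 TTP cDNAs at 13 sites and 549 TTP-AA cDNAs at 162 sites. Here and below, a lower ratio or a lost call by sites therefore does not show that the cDNA value was wrong.

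Among the 8 genes with the lowest adjusted p of those higher in TTP-AA, 3 were LPS-responsive genes with sites in both lists. Cxcl10 had 13 TTP and 549 TTP-AA cDNAs, a ratio of 42.2 (exact interval 24.5 to 79.8) with an adjusted p of 6.22e-09 by Fisher's exact test. Nfkbiz, which encodes the inducible nuclear regulator IκBζ, had 12 and 375 cDNAs (ratio 31.3, 17.7 to 61.0). Klf6, an immediate early transcription factor, had 7 and 252 (36.0, 17.2 to 90.5). The calls of Cxcl10 and Klf6 were lost when each site was counted once, with odds ratios of 1.38 and 2.39.

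The other 5 encode proteins with general cellular roles. Anxa5, a phospholipid-binding annexin, had 3 TTP and 207 TTP-AA cDNAs. TTP-AA had 121 cDNAs on Ubl3 (a membrane-anchored ubiquitin-like protein), 118 on Lamp2 (a lysosomal membrane protein), 113 on Ctnnb1 (β-catenin) and 109 on Fam49b, all 4 listed at 0 for TTP. These 4 calls were lost when the lists were limited to sites with at least 2 cDNAs.

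The 8 genes higher in TTP with the lowest adjusted p included both inflammatory and housekeeping transcripts. Tnf stood first, with 727 TTP and 1673 TTP-AA cDNAs, a ratio of 2.30 (2.11 to 2.51) and an adjusted p of 6.21e-188 by Fisher's exact test. Ccl3 had 244 and 938 cDNAs (ratio 3.84, 3.34 to 4.44), and Ier3 had 87 and 159 (1.83, 1.40 to 2.40). Actb, which encodes β-actin, had 311 and 1116 (3.59, 3.16 to 4.08). Thus Tnf, Ccl3, Ier3 and Actb had more cDNAs for TTP-AA and a smaller share of its total. Against cDNAs of any region their odds ratios turned to 1.31, 2.19, 1.04 and 2.05, all towards TTP-AA.

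The other 4 of these 8 were Lars2, Rnf225, Nckap5l and Fnbp1. Lars2 had 291 TTP and 223 TTP-AA cDNAs (ratio 0.766, 0.641 to 0.916) and no AUUUA in its 3′UTR. Rnf225 had 90 and 48 cDNAs, all at sequence shared with a small nuclear RNA, so their source is uncertain. Nckap5l had 55 and 56 cDNAs and Fnbp1 had 35 and 24. In Fnbp1, 31 of the 35 TTP and 19 of the 24 TTP-AA cDNAs lay at 1 nucleotide, nt 2404, in a window without AUUUA. Sequence shared with annotated small or ribosomal RNA held 171 (1.79%) of the TTP and 193 (0.206%) of the TTP-AA 3′UTR cDNAs, and 127 genes were called without it.

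**Figure D1:**
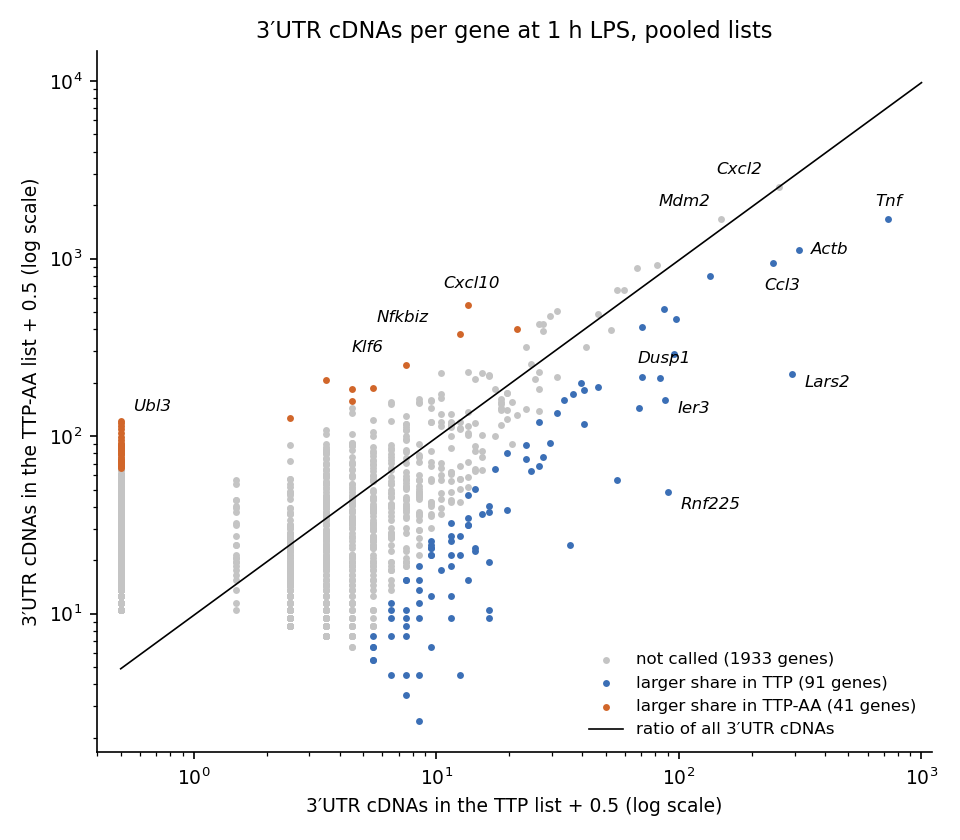
3′UTR cDNAs per gene in the TTP list (x axis) and the TTP-AA list (y axis), each with 0.5 added and on a log axis, for the 2065 tested genes, with called genes coloured by direction and genes listed at 0 for TTP in the left column. Tnf (727 and 1673) and Actb (311 and 1116) lie below the line of the summed ratio of 9.78, and Cxcl10 (13 and 549) above it.

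The called groups also differed in the make-up of their 3′UTRs, given here as a description. Genes called higher in TTP-AA had a median of 5 AUUUA pentamers, a 3′UTR of 1947 nt and an AU content of 60.3%. Genes called higher in TTP had medians of 3 pentamers, 1651 nt and 54.5%, and all tested genes of 3, 1618 nt and 58.8%. The groups also differed in depth. The median of TTP-AA cDNAs was 87 in genes called higher in TTP-AA, 24 in those called higher in TTP and 20 in all tested genes. The part of depth in the make-up of the called groups was not tested. No pentamer was found in 11 of the 91 genes higher in TTP (12.1%), against 10.3% of all tested genes. The ratio of summed cDNAs rose with AU content, from 5.70 for 3′UTRs of 50 to 55% AU to 15.2 above 70%, and was 9.01 at 50% AU or less.

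How often TTP listed a gene moved with how many cDNAs TTP-AA had there. TTP listed 26.0% of the 961 genes with 10 to 20 TTP-AA cDNAs, 63.1% of the 301 genes in the middle of 5 such classes, and 100% of the 55 genes above 160. The ratio of summed cDNAs fell over the same classes, from 15.9 in the lowest to 6.56 in the highest. For this reason the ratio of each list is set below beside level-matched values, the ratio of its members with at least 10 TTP-AA cDNAs against that of the other genes in the same classes. The highest class had no upper limit and held Tnf and Actb. Both genes therefore enter the compared value of every other list with members in that class.

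The functional make-up was then described with 30 gene lists covering 873 genes, of which 514 were tested and 49 called, and the share called over all tested genes was 6.39% (1.99% towards TTP-AA and 4.41% towards TTP). Counts of called members below are read against these shares, which depend on how many cDNAs a gene had. Sums over a list take in every listed member, tested or not. The ratio of TTP-AA to TTP cDNAs ran from 3.04 to 28.7 over the lists. It was above the summed ratio of 9.78 in 18 lists and below in 12, and its interval lay wholly above in 13 and wholly below in 8. With each site counted once the summed ratio was 9.03, and the interval lay wholly above it in 5 lists and wholly below in 9. In 7 lists no member was called. Members named below are the 3 with most cDNAs in their list or those called, and the called members beyond these 3 were named after their values were seen. List medians are of scaled log2 ratios, and 5 of the 30 were above the 1.23 of all tested genes. The 27 leading targets, a list picked from these samples and so no independent evidence of direction, had 3165 TTP and 18563 TTP-AA cDNAs (ratio 5.87), with 11 members called towards TTP and 3 towards TTP-AA.

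Cytokines had the lowest ratio of TTP-AA to TTP of the 30 lists. Cytokines and growth factors had 938 TTP and 2848 TTP-AA cDNAs, a ratio of 3.04 (2.82 to 3.27, level-matched 3.02 against 8.24). Of 11 tested members TTP was called higher in 3 and TTP-AA in 1, 5 were listed at 0 for TTP, and the median was 0.64. Beside Tnf, the TTP calls were Spp1 (osteopontin), with 97 TTP and 457 TTP-AA cDNAs, and the stress cytokine Gdf15, with 95 and 288. The TTP-AA call was the growth factor gene Pdgfb, with 98 TTP-AA cDNAs and listed at 0 for TTP. Without Tnf the ratio of the list was 5.57.

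Chemokines, which attract leukocytes, had 689 TTP and 6067 TTP-AA cDNAs, a ratio of 8.81 (8.14 to 9.54, level-matched 8.83 against 6.19). The median of the 8 tested members was 0.14. Cxcl2 had 258 and 2536 cDNAs, Ccl2 81 and 913, and Ccl4 67 and 886, and none of these 3 passed the test. The calls were Ccl3 towards TTP and Cxcl10 towards TTP-AA. With each site counted once the chemokines fell to 338 TTP and 1050 TTP-AA sites, a ratio of 3.11 (2.75 to 3.52), against 9.03 over all 3′UTR sites.

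The lists of receptors and of the Toll-like receptor pathway had ratios with intervals wholly above 9.78 in summed cDNAs, but not wholly above 9.03 when each site was counted once. TNF and interleukin receptors and TNF superfamily ligands had 46 and 690 cDNAs (ratio 15.0, 11.1 to 20.7, level-matched 17.0 against 7.82), with none of 9 called and a median of 0.73. Their leading member Tnfsf9, the ligand of 4-1BB, had 26 and 429. The Toll-like receptor list had 33 and 713 cDNAs (21.6, 15.2 to 31.6, level-matched 20.9 against 7.50), with 1 of 7 called and a median of 1.57. The inflammasome sensor Nlrp3 held 31 and 505 of these, the receptor Tlr2 was called with 76 TTP-AA cDNAs and listed at 0 for TTP, and its co-receptor Cd14 had 39 and was likewise listed at 0. Without Nlrp3 the list rested on 2 TTP cDNAs. By sites the receptor list gave 7.89 (5.62 to 11.4) and the Toll-like receptor list 9.82 (6.65 to 15.1), both with 9.03 in the interval.

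NF-κB, the transcription factor of most LPS-induced genes, is held in check by IκB proteins and by the ubiquitin-editing enzyme A20. The list of its factors and inhibitors had 139 TTP and 2065 TTP-AA cDNAs, a ratio of 14.9 (12.5 to 17.8, level-matched 14.8 against 6.83). By sites the ratio was 8.46 (6.90 to 10.5), with the 9.03 of all sites in the interval. Of 13 tested members Nfkbiz alone was called, and the median was 1.23, as for all tested genes. Nfkbia had 59 and 662 cDNAs and Tnfaip3, which encodes A20, had 55 and 664. Neither passed the test.

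The MAP kinases had the highest ratio of the lists. They had 12 TTP and 344 TTP-AA cDNAs (ratio 28.7, 16.2 to 56.0, level-matched 35.4 against 13.2), with 12 of 15 tested members listed at 0 for TTP, as were 1140 of all 2065 tested genes. Mapk6, an atypical MAP kinase, was called with 84 TTP-AA cDNAs, and Map2k1 and Map3k20 each had 28, all 3 listed at 0 for TTP. The phosphatases and Sprouty proteins, which restrain the pathway, had 86 and 492 cDNAs (5.72, 4.54 to 7.28, level-matched 5.42 against 8.75). Dusp1 was the called member, with 70 and 214, and Spred1 had 9 and 119 and Spred2 4 and 30. Without Dusp1 the ratio was 17.4, so the low ratio of this list rested on 1 gene.

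The immediate early factors, transcribed within minutes of a stimulus, had 268 and 2415 cDNAs (ratio 9.01, 7.94 to 10.3, level-matched 8.96 against 8.54). Klf6 was called towards TTP-AA and Ier3 and Fos, an AP-1 subunit with 24 and 63 cDNAs, towards TTP. The kinase gene Plk2 (41 and 319) and the AP-1 gene Junb (23 and 316) did not pass the test. The list of JAK, STAT, SOCS and interferon factors had 19 and 292 cDNAs (15.4, 9.67 to 25.9, level-matched 14.6 against 12.4, by sites 10.2) with none of 7 called. Its leading member Socs3, a feedback inhibitor of cytokine receptors, had 5 and 105.

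Regulators that bind AU-rich or stem-loop elements had 297 and 2246 cDNAs (ratio 7.56, 6.70 to 8.56, level-matched 7.69 against 8.68). The median of the 21 tested members was the lowest of the 30 lists, -0.33. Both calls were towards TTP, namely Ybx3, a cold shock protein, with 134 and 801 cDNAs, and Zfp36l2, a TTP paralog, with 23 and 74. Hnrnpab had 8 and 162. Deadenylation and decay factors had 45 and 441 cDNAs (9.80, level-matched 11.8 against 12.7), with Gigyf1, a translational repressor, called towards TTP on 7 and 3 cDNAs. Translation initiation and elongation factors had 106 and 810 (7.64, 6.23 to 9.45, level-matched 7.62 against 12.3), with Eif5a called towards TTP on 40 and 117. The list of hnRNP, SR and spliceosome proteins had 96 and 1487 (15.5, 12.6 to 19.2, level-matched 15.0 against 11.1), and both calls among 31 members, Hnrnpa0 and Srsf6, were towards TTP-AA with 89 and 84 cDNAs, listed at 0 for TTP.

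Cell cycle and survival lists had ratios above 9.78 in summed cDNAs. The p53 pathway had 238 and 2797 cDNAs (11.8, 10.3 to 13.5, level-matched 11.8 against 7.06) with none of 17 called and a median of 1.23. By sites its ratio was 5.89 (4.99 to 6.98), wholly below 9.03, so its side turned with the unit counted. Mdm2 had 149 and 1674 and the cyclin-dependent kinase inhibitor gene Cdkn1a had 46 and 488. Cyclins and cell cycle kinases had 43 and 712 (16.6, 12.2 to 23.1, level-matched 23.3 against 13.5). Of 28 tested members 18 were listed at 0 for TTP, against 1140 of all 2065 tested genes, among them the mitotic kinase gene Cdk1, called on 66 TTP-AA cDNAs. The list of the BCL-2 family, inhibitors of apoptosis and caspases had 48 and 656 (13.7, 10.2 to 18.7, level-matched 14.1 against 9.33) and 2 calls in opposite directions. Mcl1 had 89 TTP-AA cDNAs and was listed at 0 for TTP, and Bcl2l1, which encodes BCL-XL, had 11 and 21 and was called towards TTP. Cflar, an inhibitor of caspase-8, had 14 and 209.

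Actin genes and adhesion genes, both part of macrophage migration, lay on opposite sides of 9.78 in summed cDNAs. By sites both lay below 9.03, at 4.83 (4.32 to 5.41) and 8.37 (6.99 to 10.1), the second with 9.03 in its interval. Actin and actin-binding proteins had 611 and 3895 cDNAs (6.37, 5.85 to 6.95, level-matched 6.41 against 8.11), and 4 of 30 members were called, all towards TTP (4.41% of all tested genes). These were Actb, the actin monomer-binding genes Pfn1 (70 and 413) and Cfl1 (31 and 134), and Actr2 of the Arp2/3 complex (39 and 198). Tmsb4x, which encodes thymosin β4, had 27 and 392. Without Actb the ratio was 9.26. Adhesion molecules and integrins had 163 and 2301 cDNAs (14.1, 12.0 to 16.6, level-matched 14.0 against 7.58), with 4 of 19 called towards TTP-AA (1.99% of all tested genes) and 1, the tetraspanin gene Cd81 (6 and 10), towards TTP. The integrin ligand gene Icam1 had 21 and 399, and the integrin genes Itga4, Itgav and Itgam had 95, 91 and 85 TTP-AA cDNAs and were listed at 0 for TTP. Plau, the urokinase gene, had 29 and 475 and the syndecan gene Sdc4 had 52 and 393, neither past the test.

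Vesicle and lysosome genes were called in both directions. The lysosomal list had 211 and 1767 cDNAs (8.37, 7.26 to 9.71, level-matched 8.50 against 10.1), with the proton pump gene Atp6v0b (83 and 211) and the protease gene Ctsb (26 and 119) called towards TTP. Lamp2 and Ctss (72 TTP-AA cDNAs) were called towards TTP-AA, both listed at 0 for TTP. Without Atp6v0b the ratio was 12.2. Rab, Arf and Arl GTPases, which direct vesicle traffic, had 62 and 870 (14.0, 10.8 to 18.5, level-matched 14.4 against 12.4), and Arl8a and Rab14, with 103 and 74, were called towards TTP-AA and listed at 0 for TTP. The list of ER to Golgi coat and cargo proteins had 84 and 1018 (12.1, level-matched 12.4 against 10.9), with Ssr1 called towards TTP on 11 and 32.

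In the 4 metabolic lists that follow, the called members were all towards TTP, as were most calls over all genes. The sterol and lipid list had 146 and 1187 cDNAs (8.13, 6.84 to 9.72, level-matched 8.39 against 8.81), and its calls were Lpl (lipoprotein lipase, 86 and 516), Fasn (fatty acid synthase, 19 and 80) and the cholesterol exporter gene Abcg1 (11 and 9). Its median was 1.41, and 11 of 18 tested members were listed at 0 for TTP. The glycolysis list had 36 and 262 (7.28, 5.12 to 10.6, level-matched 7.21 against 13.4) with Hk2 (hexokinase 2, 13 and 46) called. Solute carriers had 164 and 1362 (8.30, 7.06 to 9.83, level-matched 10.3 against 10.9) with 3 of 34 called. The nuclear-encoded respiratory chain had 33 and 485 (14.7, 10.3 to 21.6, level-matched 18.1 against 13.3) and a median of 1.52, with Atp5a1 (9 and 23) and Ndufa4 (5 and 6) called towards TTP and Cox7a2 at 2 and 88.

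The remaining lists held 2 called members. Chromatin modifiers had 72 and 849 cDNAs (11.8, level-matched 15.0 against 13.4) with none of 30 called. Cytosolic ribosomal proteins had 6 and 158 (26.3, 11.8 to 72.8) with none of 6 called, and level-matched their ratio was 15.5 against 15.2. The list of MHC class I and antigen processing had 29 and 436, of which B2m, the light chain of MHC class I, held 27 and 425. Its ratio of 15.0 was 7.89 (4.88 to 13.5) by sites. Ubiquitin and its conjugating enzymes had 76 and 674 (8.87, level-matched 8.85 against 12.2), with Ubl3 called towards TTP-AA and Ube2m (26 and 67) towards TTP.

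**Figure D2:**
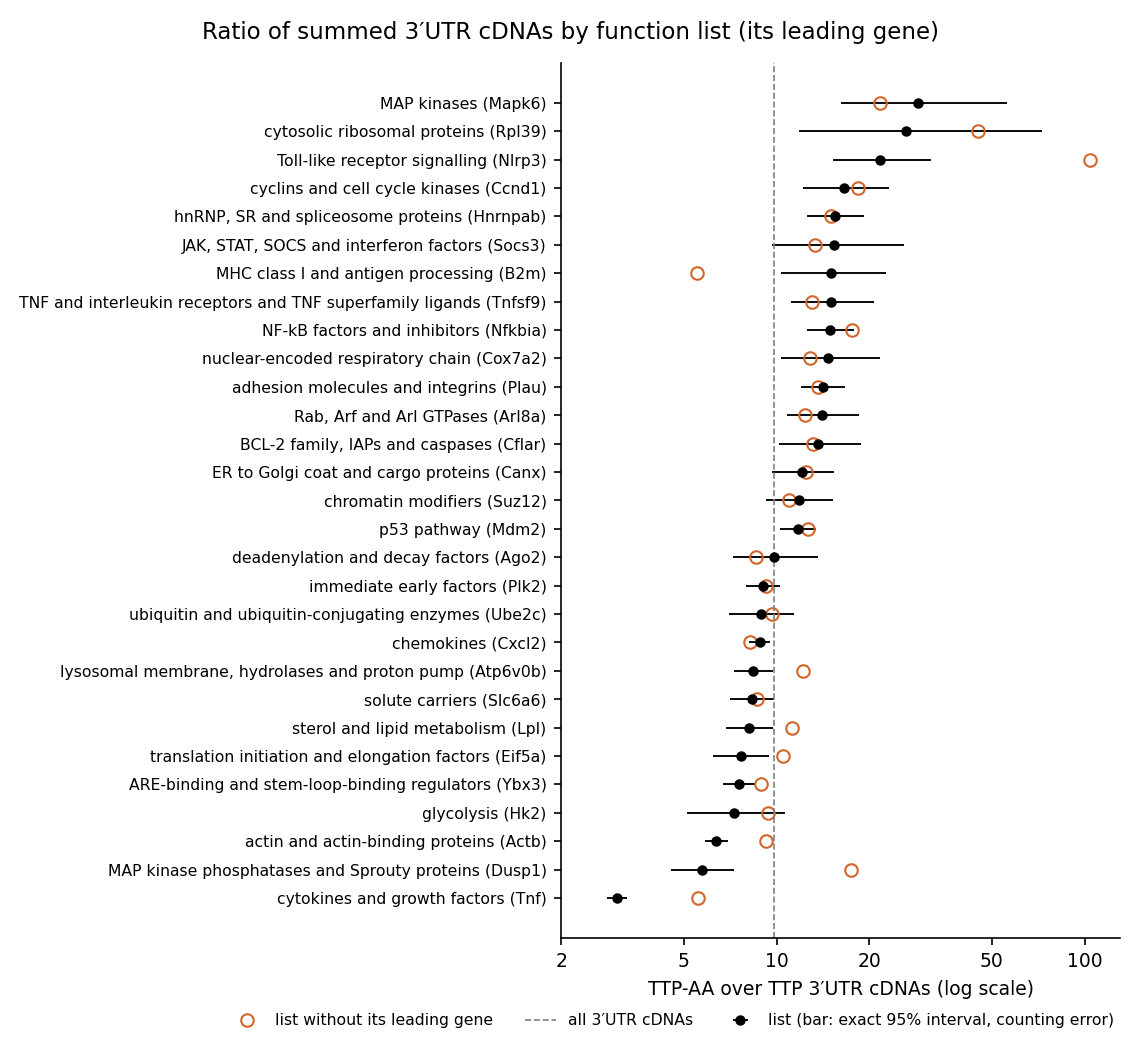
Ratio of TTP-AA to TTP 3′UTR cDNAs (x axis, log scale) for 29 of the 30 gene lists, as filled points with exact 95% intervals that cover counting error only, as open circles without the leading gene named in brackets, and with the summed ratio of 9.78 as a dashed line. Cytokines and growth factors (3.04) lie lowest and MAP kinases (28.7) highest.

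The next question was where in the 3′UTR the 2 proteins crosslinked. Sites were placed on the longest annotated 3′UTR of the gene, which took in 6599 TTP sites with 9348 cDNAs and 59245 TTP-AA sites with 90916 cDNAs. The position of cDNAs was compared within genes by a Mantel-Haenszel odds ratio over all genes with cDNAs of both proteins, in which a value above 1 means more often for TTP-AA. TTP-AA lay more often in the last 100 nt before the annotated end of 3′UTRs of at least 300 nt, with 16.4% of its cDNAs there against 9.65% for TTP. The within-gene odds ratio was 1.53 (1.39 to 1.70, 1015 genes), and the share was higher for TTP-AA in 295 genes and for TTP in 91. Such a count of genes cannot show direction here. In the first 100 nt it was 138 for TTP-AA and 66 for TTP, beside an odds ratio of 0.847. The odds ratio of the last 100 nt lay between 1.42 and 1.87 under every alternative tried for it.

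TTP-AA was also slightly more often beyond the midpoint of the 3′UTR (54.5% against 52.2%, odds ratio 1.13, 1.06 to 1.21). In the first 100 nt its odds ratio was 0.847 (0.732 to 0.981), with 4.91% against 5.16%. This value did not hold under other settings and was 1.01 (0.924 to 1.10) for the first 200 nt. Within 20 nt of an AUUUA the odds ratio was 0.836 (0.786 to 0.888), with 40.7% of the TTP-AA and 43.4% of the TTP cDNAs. Without the 10 genes with most 3′UTR cDNAs it was 0.943 (0.878 to 1.01), an interval that includes 1.

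**Figure D3:**
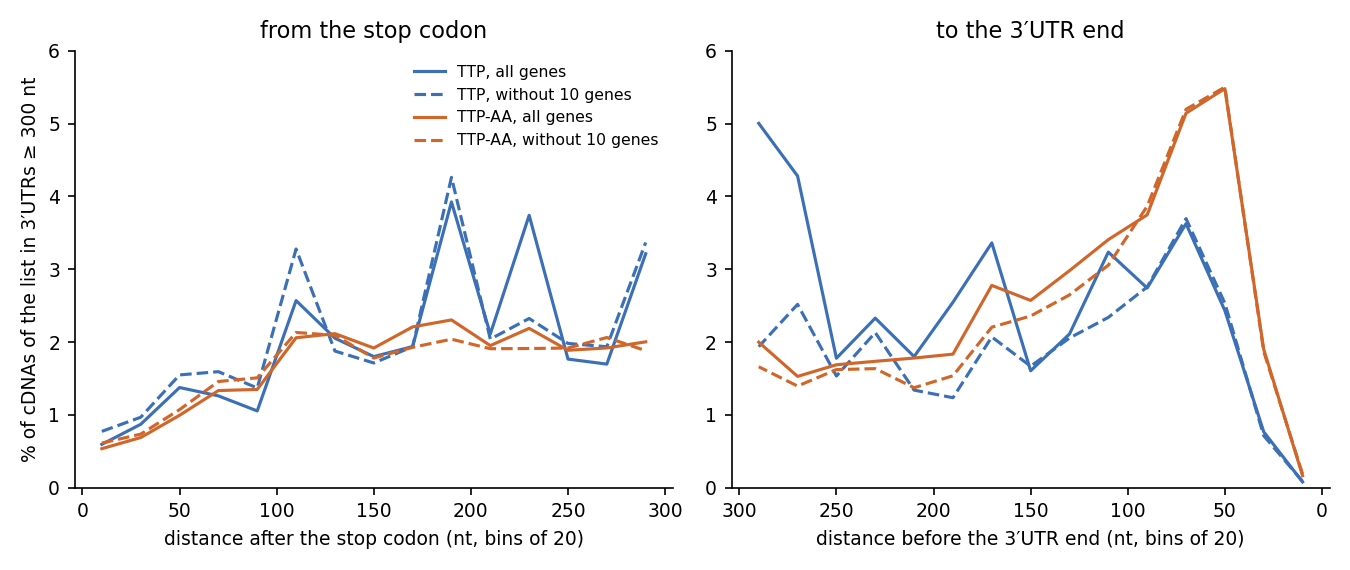
Share of the cDNAs of each list in 3′UTRs of at least 300 nt (y axis, percent) in bins of 20 nt after the stop codon (left) and before the annotated 3′UTR end (right), with all genes (solid) and without the 10 genes with most cDNAs (dashed). From 40 to 59 nt before the end TTP-AA has 5.48% and TTP 2.43% of the cDNAs.

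The excess of TTP-AA near the 3′UTR end was not spread evenly within that window. From 40 to 59 nt before the end TTP-AA had 5.48% and TTP 2.43% of the cDNAs, and from 60 to 79 nt 5.14% and 3.63%. From 0 to 19 nt both were scarce, with 0.167% and 0.0803%. In the final 10% of the length TTP-AA had 15.5% and TTP 7.77%. Leaving out the 10 genes with most cDNAs gave 16.0% and 7.86%.

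Several named genes had many of their cDNAs near the end. Of the 549 TTP-AA and 13 TTP 3′UTR cDNAs of Cxcl10, 338 and 9 were placed on its longest annotated 3′UTR, and the others have no position here. Of those placed, 329 of 338 for TTP-AA and 9 of 9 for TTP lay in the last 100 nt. For Socs3 these were 105 of 105 and 5 of 5. The shares of Plau were also close, 74.7% for TTP-AA and 72.4% for TTP. Nfkbia had 68.6% of its 662 TTP-AA cDNAs there against 49.2% of its 59 TTP cDNAs, and Nlrp3 59.2% and 48.4%. Plk2 had 26.0% and 7.32%, Tnfaip3 14.3% and 5.45%, and Sdc4 58 of 393 TTP-AA and 0 of 52 TTP cDNAs. Cxcl2 went the other way, with 19.5% and 24.4%.

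By function, the interval of the last 100 nt lay above 1 in 3 of the 17 lists that could be fitted and below 1 in none. These included the NF-κB list, with 35.4% of TTP-AA against 25.5% of TTP cDNAs (odds ratio 2.43, 1.51 to 3.92), and adhesion molecules, with 33.1% against 16.8% (3.42, 1.91 to 6.13). The third was the MAP kinase phosphatases (3.46, 1.57 to 7.63). All of their 66 TTP-AA and 8 TTP cDNAs in that window lay on Dusp1, so this value rested on 1 gene. The lists differed more in the share beyond the midpoint. That interval lay above 1 in 7 of 23 lists, among them the lysosomal list (2.58), immediate early factors (2.25) and actin genes (1.53). It lay below 1 in 4, which were cytokines (0.68), chemokines (0.60), MAP kinase phosphatases (0.39) and the regulators that bind AU-rich elements (0.49). Near AUUUA the interval lay below 1 in 8 of 25 lists, with 0.56 for cytokines, 0.76 for chemokines, 0.64 for the NF-κB list and 0.57 for the p53 pathway. It lay above 1 in 1, cyclins, which rested on 4 TTP cDNAs.

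**Figure D4:**
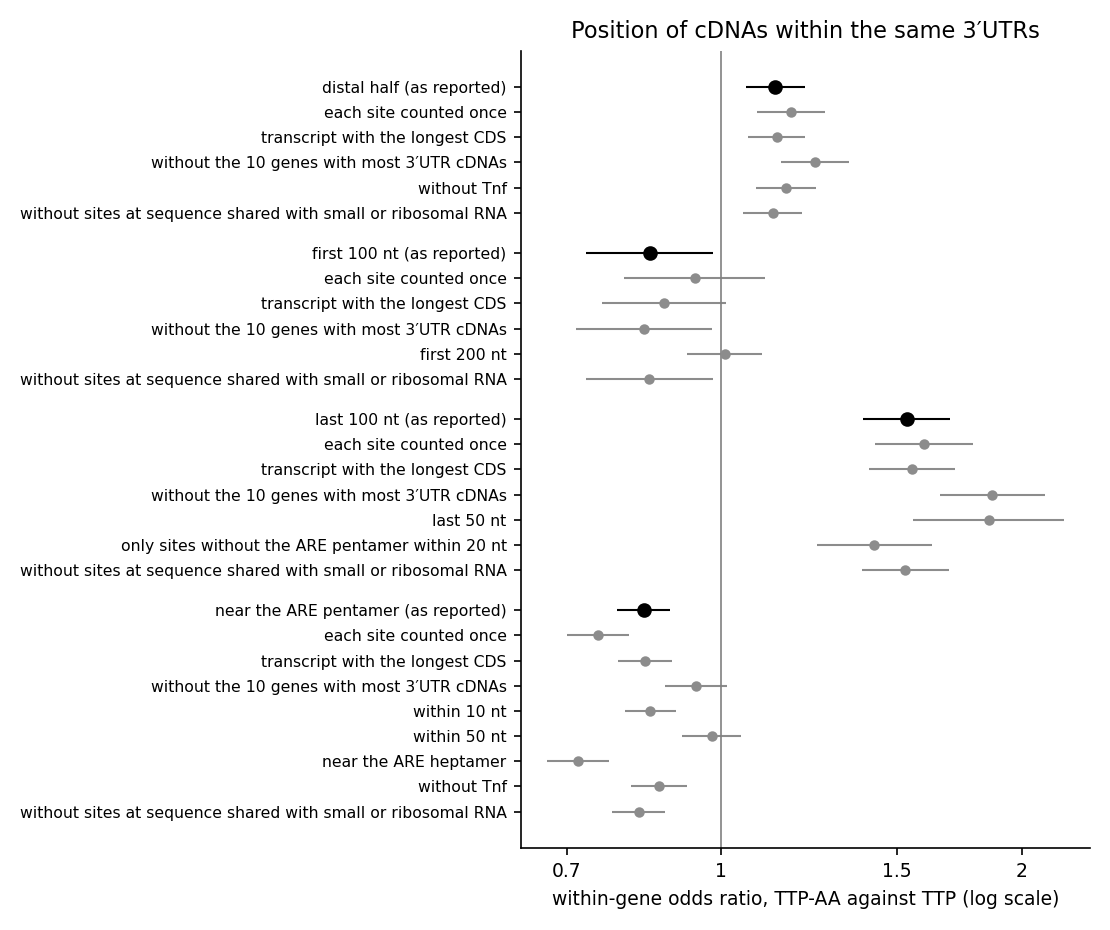
Within-gene Mantel-Haenszel odds ratios of TTP-AA against TTP (x axis, log scale) with 95% intervals for each position measure (black) and its alternatives (grey). All values of the last 100 nt lie above 1 with their intervals, and all values near the AU-rich pentamer lie below 1, with 2 intervals that include it.

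Single genes were tested for a shift in position where both lists had at least 20 cDNAs placed. Of 55 such genes, 16 (29.1%) were called by Fisher's exact test at the gene's own median position with Benjamini-Hochberg adjustment, and 23 had an unadjusted p under 0.05. TTP-AA lay further from the stop codon in 10 (18.2%) and nearer in 6. The leading sites of the 2 proteins were the same nucleotide in 10 of the 55 genes and within 15 nt in 30, with a median distance of 14 nt. The share within 20 nt of AUUUA was higher for TTP in 30 of the 44 genes with such cDNAs and for TTP-AA in 14. In the last 100 nt it was higher for TTP-AA in 21 of 49 genes and for TTP in 9.

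In Ccl3 TTP lay further out, with 68.0% of its 244 cDNAs beyond nt 221 of 409 against 44.2% of the 938 TTP-AA cDNAs (odds ratio 0.373, adjusted p = 2.21e-09 by Fisher's exact test). Zeb2, a transcriptional repressor gene, went the same way beyond nt 1000.5, with 87.5% of 24 TTP and 46.5% of 254 TTP-AA cDNAs. In the other 3 of the 5 lowest p-values TTP-AA lay further out. Actb had 53.5% of its TTP-AA and 37.3% of its TTP cDNAs beyond nt 454 of 683. Actr2 had 55.6% of 198 and 15.4% of 39 beyond nt 1966 of 2385. Lyz2 had 60.8% of 143 and 26.5% of 68 beyond nt 619 of 790.

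The calls of Ccl3, Actb and Actr2 were lost when each site was counted once, with odds ratios of 0.837, 1.61 and 3.02. Actr2 turned to 0.329 when the 3′UTR midpoint replaced its own median. Tnf and Mdm2 were called with TTP-AA nearer to the stop codon (odds ratios 0.771 and 0.609). Ccl2 (2.23), B2m (4.34), Lpl (2.05), Ctsb (4.15) and Plk2 (2.49) were called with TTP-AA further out. The leading sites of Lpl were 2107 nt apart, the largest distance of the 55 genes, and those of Tnf 3 nt.

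**Figure D5:**
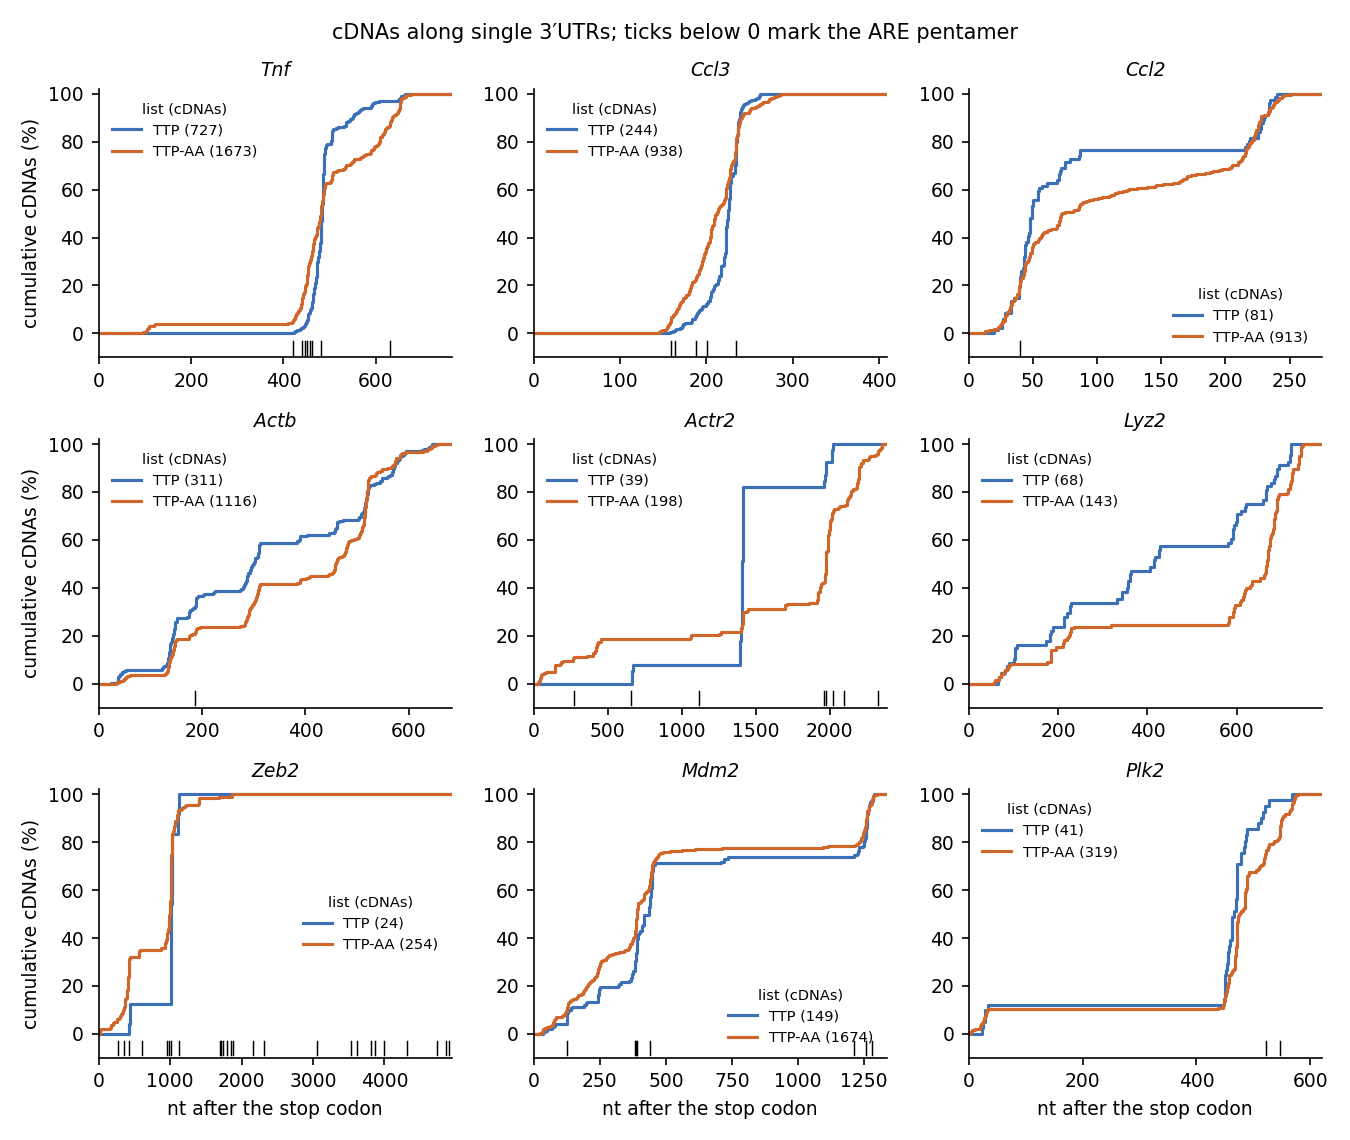
Cumulative percent of the placed cDNAs of each list (y axis) by nt after the stop codon (x axis) in 9 genes, with ticks at each AU-rich pentamer. In Tnf both curves are steep at the same element (leading sites at nt 485 and 482), whereas in Actr2 15.4% of the TTP and 55.6% of the TTP-AA cDNAs lie beyond nt 1966.

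Last, the sites of TTP were looked up in the larger TTP-AA list. Of the 6599 TTP sites placed on 3′UTRs, 5070 (76.8%, Wilson interval 75.8 to 77.8) had a TTP-AA site within 15 nt in the same gene, and 46.3% had one at the same nucleotide. This share moved with the number of TTP-AA cDNAs of the gene, from 45.3% of TTP sites in genes with 1 to 9 to 97.8% in genes with 160 or more. By function it was 100% of 333 sites in chemokines, 99.6% of 245 in cytokines, 95.8% of 167 in the p53 pathway and 92.3% of 104 in the NF-κB list. It was 90.7% of 377 in actin genes and lower in chromatin modifiers (42.6% of 61) and in cyclins and cell cycle kinases (22.0% of 41). Chromatin modifiers and cyclins also had fewer TTP-AA cDNAs, 849 and 712, than these other lists, and the part of that depth in the difference was not tested. Among lists with fewer TTP-AA cDNAs than chromatin modifiers the share went both ways. It was 100% of 37 sites in the BCL-2 list (656 cDNAs) and 92.9% of 28 in the Toll-like receptor list (713). In ubiquitin and its conjugating enzymes (674) it was 60.5% of 43, and in the respiratory chain (485) 48.4% of 31.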

How the data were processed

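Crosslink sites were analysed from 2 of 6 deposited lists (TTP and TTP-AA, 1 h LPS), and the other 4 were not used here. The values are scores, deposited as whole numbers of unique cDNAs per crosslink nucleotide with the strand as sign. Per the study's methods, the authors removed PCR duplicates with random barcodes, mapped unique reads to mm10 (GRCm38) with Bowtie using the Ensembl 75 annotation, pooled the libraries of a group and kept sites below a false discovery rate of 0.05. The short random barcodes can undercount strong sites. The headers of both lists carry an option for treating regions as a unit, whereas the sample descriptions say that regions were handled separately.

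Sites were assigned by strand to the union of 3′UTR exons of protein-coding genes (GENCODE mouse release M21). Those in the 3′UTRs of several genes (236) were each counted for 1 gene only, preferably a gene whose longest 3′UTR held the site. Shares of 3′UTR cDNAs were compared gene by gene with the two-sided Fisher exact test (Benjamini-Hochberg adjustment, threshold 0.05, at least 10 cDNAs over both lists). Log2 ratios were scaled to summed 3′UTR cDNAs with a pseudocount of 0.5. Positions used the longest 3′UTR, Mantel-Haenszel odds ratios and, with at least 20 cDNAs in each list, Fisher's exact test. Intervals are 95%. The gene-by-gene share test and the Mantel-Haenszel odds ratio near the 3′UTR end were tested on simulated data, which held no spread between libraries. The other statistics were not tested in this way. Python 3.11.15, numpy 2.4.6, pandas 2.3.3, scipy 1.17.1 and matplotlib 3.10.9 were used.

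The genes, lists and tests were chosen with earlier results of these data known. Genes were named as the 3 members of each list with most cDNAs, the 8 lowest adjusted p in each direction, the 5 lowest in the position test and, where needed, the 27 targets the study tabulated from these samples. Alternatives were other cDNA minimums, pseudocounts, centres, denominators, windows and transcripts, each site counted once, sites with at least 2 cDNAs, and leaving out the 10 strongest genes. Those chosen after seeing the data were leaving out sequence shared with small RNA, leaving out Tnf, sites without a nearby AUUUA, genes in both lists only, and list ratios by sites. The result of 1 gene list is not reported here.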

Additional observations from a re-analysis of the deposited data

How the results depend on the processing

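No paired analysis was possible because the libraries were pooled before deposit, so the columns carry no replicate, and for the same reason no library could be left out in turn. The count of 132 genes called on 3′UTR share became 64 with sites of at least 2 cDNAs (30 higher in TTP-AA, 34 in TTP) and 1763 against cDNAs of any region, which turned the odds ratios of Tnf to 1.31, Actb to 2.05, Ccl3 to 2.19 and Ier3 to 1.04. The other 6 alternatives gave 106 to 139 genes. The number of lists with a median above that of all genes was 5, and it was 13 with a pseudocount of 1, 13 with a minimum of 5 cDNAs, 11 with a minimum of 20 and 20 among genes in both lists. The first 100 nt gave 0.940 (0.799 to 1.11) with sites counted once, 0.875 (0.758 to 1.01) on the transcript with the longest coding sequence and 1.01 for 200 nt. The AUUUA odds ratio was 0.943 without the 10 strongest genes and 0.978 (0.914 to 1.05) within 50 nt. Position calls went from 16 to 25 with a minimum of 10 cDNAs and to 6 with sites counted once, and Actr2 turned to 0.329 at the 3′UTR midpoint. Shared TTP sites were 46.3% at the same nucleotide, 71.9% within 5 nt and 83.2% with at least 2 cDNAs. The cause of these changes was not tested. Among values of single genes under alternatives, 126 kept their direction and call, 9 lost the call and 5 turned, and the position of Zeb2 gave no value at the 3′UTR midpoint. Odds ratios of genes listed at 0 were computed with 0.5 added to each count. The TTP list held fewer 3′UTR cDNAs (9558 against 93510) and listed 1140 of the 2065 tested genes at 0, and the part of depth in these zeros was not tested.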

Other observations

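Runs of U stood out among the leading TTP sites of Actb and Actr2, and the measure described here was chosen after those sites had been seen. A run of at least 10 U lay within the 29 nt window of 887 of 9348 TTP cDNAs (9.49%, Wilson interval 8.91 to 10.1) and of 3950 of 90916 TTP-AA cDNAs (4.34%, 4.21 to 4.48). The within-gene odds ratio of TTP-AA against TTP was 0.469 (0.421 to 0.522). It was 0.461 (0.409 to 0.519) without Actb and Actr2 and 0.381 (0.336 to 0.432) with each site counted once. Actr2 had such a run at 74.4% of its 39 TTP and 8.08% of its 198 TTP-AA cDNAs, and Actb at 34.1% of 311 and 25.9% of 1116. Runs of a single base map less uniquely than other sequence, and the part of mapping in this difference was not tested.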
